A study of Mus musculus with 76 samples.

Results

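The suprachiasmatic nucleus (SCN) is a small paired nucleus of the anterior hypothalamus that holds the central circadian clock of mammals. The 24 SCN libraries of the series, out of 76 libraries in all, were taken by their label, and 12 libraries of mice on time-restricted feeding (TRF) were set against 12 libraries of mice fed ad libitum (AL). The 8 SCN groups held 3 libraries each: TRF Bmal1-VIPKO (KO) at circadian time (CT) 0 and at CT12, TRF wild type (WT) at CT0 and at CT12, AL KO at CT0 and at CT12, and AL WT at CT0 and at CT12. The KO label names a loss of the clock gene Bmal1 (symbol Arntl) from cells that express Vip, the gene of vasoactive intestinal peptide; the labels give no promoter, strain, age, sex or hours of feeding. They do not say whether a library is 1 animal or a pool, so p-values measure the spread between these libraries, which may be partly technical. Libraries are named by the number in their title, and each AL group holds 1 library with a 3-digit number.

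SCN neurons are nearly all GABAergic and keep time through a feedback loop in which CLOCK and BMAL1 drive the Per and Cry genes, whose products then repress them. Light sets this clock, whereas mealtime is known to set the clocks of liver and other organs with little effect on the SCN in a light-dark cycle. Restricted feeding also shapes the daily rhythm of body temperature, to which cold-inducible RNA-binding proteins and heat shock proteins respond. The SCN lies close to other regions: the lateral hypothalamus makes orexin (Hcrt), the arcuate nucleus pro-opiomelanocortin (Pomc), the ventromedial nucleus steroidogenic factor 1 (Nr5a1), and the striatum and basal forebrain lie in front of it and above it.

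Each SCN library held between 15183397 and 19018983 counts in all. Expression is given in CPM, that is, relative to the library total after TMM adjustment, and a gene was called where edgeR's quasi-likelihood test gave a Benjamini-Hochberg adjusted p below 0.05 over 18133 genes. Arntl had 18.3 to 29.2 CPM in KO and 18.2 to 27.5 CPM in WT libraries. A deletion limited to Vip cells cannot be checked by that level in bulk tissue. Vip had 0 to 1.28 CPM in KO and 0.504 to 17.7 CPM in WT libraries, and the libraries labelled AL WT 39 and 47, at 0.663 and 0.504 CPM, lay within the KO range. Avp, the neuropeptide of the SCN shell that supraoptic and paraventricular neurons also make, ran from 10.3 to 762 CPM in TRF and from 26.8 to 1334 CPM in AL libraries, and was lowest in TRF WT library 10.

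Genes that mark the tissue around the SCN differed between the feeding groups. Hcrt, the orexin precursor, had 0.177 CPM in the lowest, 0.517 in the median and 323 in the highest TRF library, against 0.577, 156 and 574 CPM in AL libraries. The groups overlapped: TRF KO libraries 55, 28 and 29 had 323, 138 and 234 CPM, while the 3-digit AL WT CT0 library had 0.577 CPM. The fitted log2 TRF/AL difference was -3.87 ± 1.15 (SE, n = 12 each; edgeR adjusted p 0.032). Pomc, the precursor of melanocortins and beta-endorphin, had 1.70, 3.19 and 57.4 CPM in the lowest, median and highest TRF libraries, against 2.54, 57.7 and 100 CPM in AL libraries. It was lower in TRF by 2.73 on the log2 scale (log2 -2.73 ± 0.534; edgeR adjusted p 0.00519). TRF KO libraries 28 and 29, with 46.4 and 57.4 CPM, lay among the AL libraries, while library 55 had 20.6 CPM, above the other TRF libraries and below all AL libraries but the 3-digit AL WT CT0 library. Nr5a1 had 0.294, 0.666 and 30.3 CPM in TRF, against 0.289, 28.2 and 45.6 CPM in AL libraries, a log2 difference of -2.89 ± 0.673 (edgeR adjusted p 0.0112).

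Striatal genes lay on the other side. Drd1, the D1 dopamine receptor, had 3.02, 12.4 and 82.5 CPM in the lowest, median and highest TRF libraries, against 3.04, 3.93 and 29.8 CPM in AL libraries (log2 1.68 ± 0.505; edgeR adjusted p 0.0332). Ppp1r1b (DARPP-32), the phosphatase inhibitor of medium spiny neurons, had 34.7, 84.5 and 586 CPM in TRF, against 22.7, 29.1 and 231 CPM in AL libraries (log2 1.83 ± 0.510; edgeR adjusted p 0.0248). TRF WT libraries 1 and 10, with 568 and 586 CPM, stood far above the rest, followed by TRF KO libraries 21 and 20 with 281 and 237 CPM and the 3-digit AL WT CT0 library with 231 CPM. In bulk tissue, fewer cells of a type and less RNA per cell cannot be told apart, here and in all that follows.

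**Figure D1:**
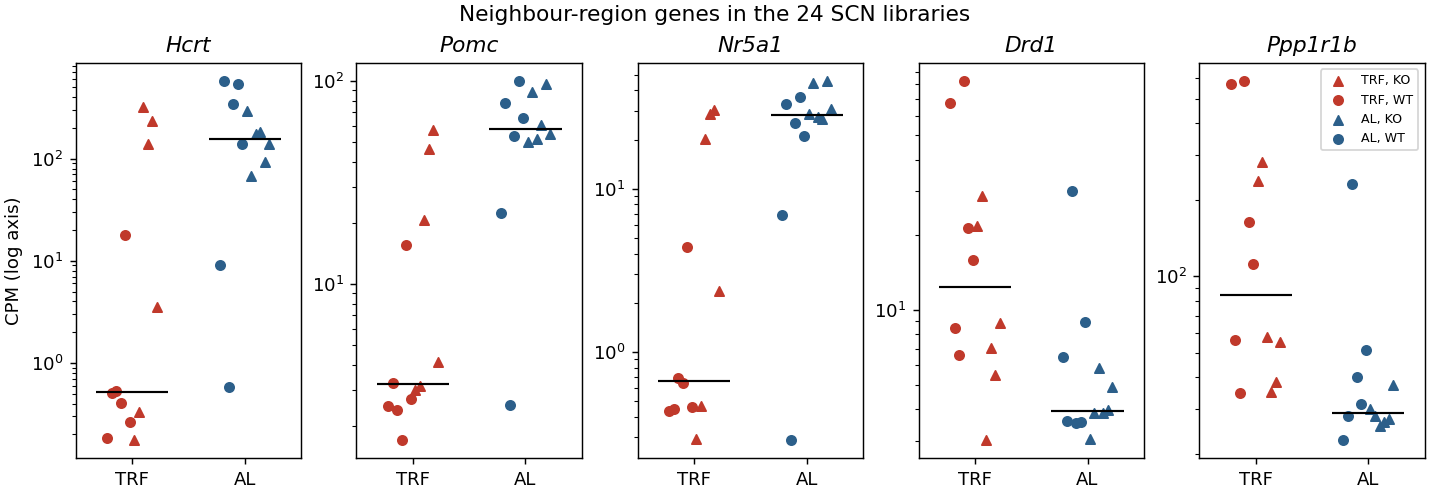
Levels of 5 genes of neighbouring regions (CPM, log axis) in each SCN library, TRF left and AL right, with KO as triangles, WT as circles and the median as a bar. The median AL library had 156 CPM of Hcrt, 57.7 of Pomc and 28.2 of Nr5a1, while TRF KO libraries 28 and 29 had 138 and 234 CPM of Hcrt and 46.4 and 57.4 CPM of Pomc. Drd1 and Ppp1r1b were highest in TRF WT libraries 1 and 10.

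Across the whole lists, which include the 5 genes above, calls went in these directions. Of all genes, 16.3% were called (8.96% higher and 7.35% lower in TRF). Of 6 tested arcuate genes, 5 were lower in TRF and none higher, of 5 ventromedial genes 4 were lower, and of 4 lateral and dorsomedial genes 3 were lower. These 12 included Ghrh (growth hormone-releasing hormone), Cartpt, Agrp (the hunger peptide of the arcuate nucleus), Pmch (melanin-concentrating hormone) and Npvf. Median log2 TRF/AL was -1.34, -1.14 and -3.71 over the members of the 3 lists, against -0.00681 over all genes. Summed levels of the lateral and dorsomedial list had a median of 8.75 CPM in TRF and 189 CPM in AL libraries. Of 14 striatal genes 6 were higher, among them Scn4b, and none lower, with a median log2 of 0.76 and summed levels of 753 to 3812 CPM in TRF and 660 to 1756 CPM in AL libraries. Oxytocin (Oxt), Crh, Trh, Otp and the other 2 paraventricular and supraoptic genes were not called, and of 9 cortical and thalamic genes Neurod2 and Emx1 were higher, at levels of 10.5 CPM or less.

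Libraries differed in striatal and in tuberal hypothalamic RNA, and both differences crossed the feeding groups. The first principal component of the 24 libraries held 26.1% of the variance and ran from TRF WT library 10 to AL KO library 56. The mean log2 CPM of the 15 tested arcuate, ventromedial and lateral genes was 0.738, 1.19 and 4.46 in the lowest, median and highest TRF libraries, against 1.27, 4.32 and 5.02 in AL libraries. Feeding accounted for 39.5% of the variance of that mean, for 22.2% of the variance of the striatal mean and for 31.4% of that of 10 oligodendrocyte genes. TRF KO library 55, at 4.46, had a hypothalamic mean among those of AL libraries, and the 3-digit AL WT CT0 library the striatal levels of TRF libraries.

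**Figure D2:**
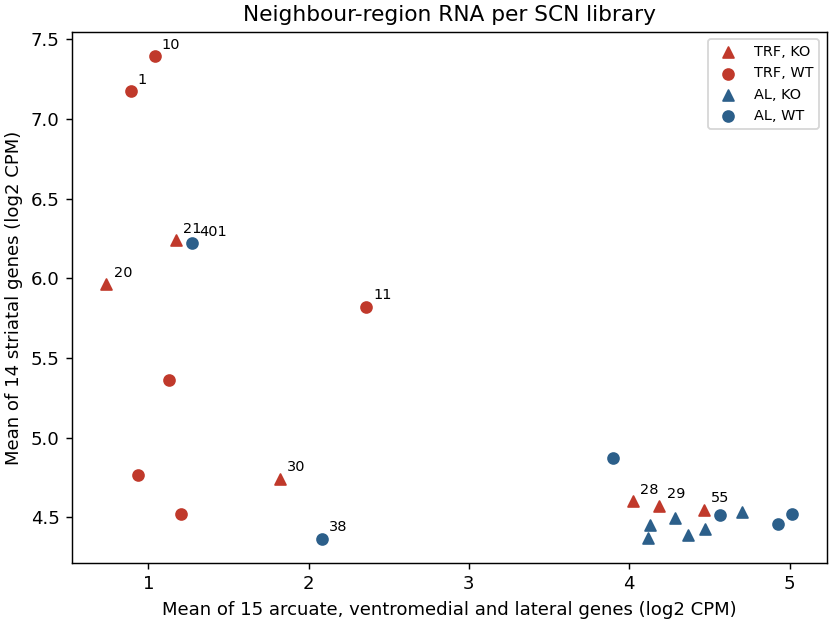
Mean log2 CPM of 15 arcuate, ventromedial and lateral hypothalamic genes (x axis) against that of 14 striatal genes (y axis), 1 point per SCN library, with TRF red and AL blue. The 3-digit AL WT CT0 library is the only AL point above 6 on the striatal axis, and TRF points 55, 28 and 29 lie above 4 on the hypothalamic axis.

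Among all genes, 1624 were higher and 1332 lower in TRF. Of these 2956, 7 had no overlap between the 12 TRF and 12 AL libraries, and genes without overlap were not counted over all tested genes. The count of called genes was 1953 without TRF KO library 21 and 1839 without AL WT library 39. The largest rises included genes of forebrain cholinergic neurons, a grouping chosen after the values were seen. Chat, which makes acetylcholine, had 3.59, 28.2 and 46.9 CPM in the lowest, median and highest TRF libraries, against 0.834, 6.35 and 29.4 CPM in AL libraries (log2 1.93 ± 0.419; edgeR adjusted p 0.00823). TRF library 55 was the lowest TRF library and the 3-digit AL WT CT0 library the highest AL library. Slc5a7 (choline uptake), Slc18a3 (vesicular acetylcholine transport), Ngfr (a nerve growth factor receptor) and the homeobox gene Gbx1 rose by log2 1.73, 1.63, 1.52 and 2.26. Further rises were in Ankrd63 (log2 2.81), the potassium channel genes Kcnh3 (2.14) and Kcnj4 (1.65), and the nicotinic receptor subunit Chrna2 (2.05).

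Cyp26b1, which encodes an enzyme that breaks down retinoic acid, had 4.50, 16.3 and 35.0 CPM in the lowest, median and highest TRF libraries, against 2.38, 3.83 and 7.97 CPM in AL libraries. Library 55 alone among TRF libraries lay within the AL range, and the log2 TRF/AL difference of Cyp26b1 was 1.95 ± 0.241 (edgeR adjusted p 0.00126). Large falls were in the hypothalamic homeobox genes Nkx2-4 (log2 -3.80) and Bsx (-2.95), in Cited1 (-1.24), Gpr50 (-1.22), an orphan relative of the melatonin receptors, and Hmcn2 (-1.15). Nkx2-4 had 0 to 12.6 CPM in TRF, with 12.6 CPM in library 55, against 0 to 16.0 CPM in AL libraries, with 0 CPM in the 3-digit AL WT CT0 library.

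These calls were then set against a fit in which the striatal, hypothalamic and oligodendrocyte means entered as 3 additive terms, whose slopes came from differences among libraries of the same group. With the terms, 1 of 18094 genes was called (0.00553%), in place of 2956. The median absolute log2 difference of the called genes was 0.223 without the terms and 0.115 with them, and the median standard error over all genes 0.0695 and 0.10. Of the called genes that could be tested again, 2782 kept their sign and 151 had the opposite sign, among them Bsx, Nkx2-4, Gpr50 and Fzd5. The terms themselves differed between the feeding groups, so for most of the 2956 genes an effect of feeding and a difference in neighbouring tissue cannot be told apart.

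**Figure D3:**
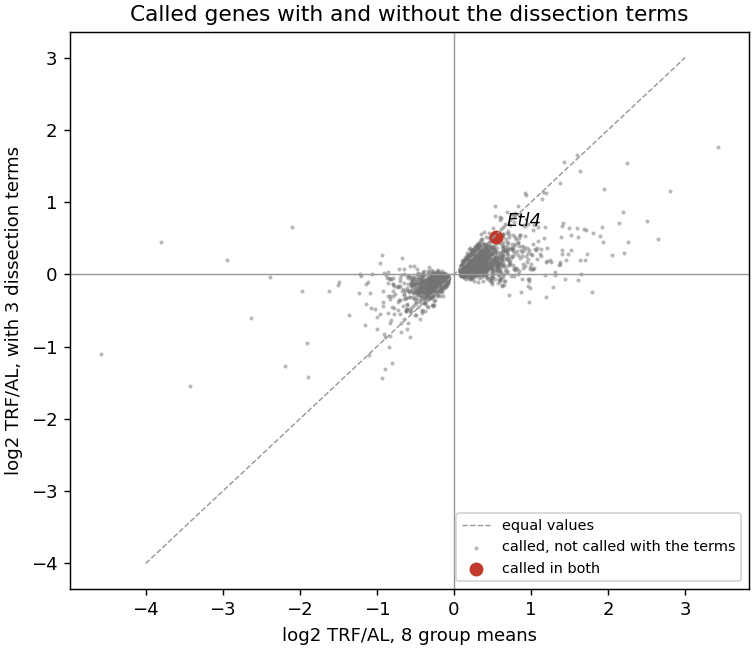
Log2 TRF/AL of the called genes from the 8 group means (x axis) and with the 3 dissection terms (y axis), 1 point per gene, with equality as a dashed line. Most points lie nearer 0 on the y axis, and Etl4, called in both fits, lies close to the line at 0.55 and 0.52.

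Etl4 (Skt, named sickle tail after a mouse mutant, with a role in the intervertebral disc) was the gene that kept its call. It lies at chr2:19909780-20810713 on the plus strand of GRCm38 and overlaps antisense annotated genes, whose reads cannot be told apart without a stated strand setting. Etl4 had 55.9, 57.1 and 53.3 CPM in TRF KO CT0, 63.5, 62.4 and 70.4 CPM in TRF KO CT12, 47.6, 54.7 and 53.6 CPM in TRF WT CT0 and 53.8, 47.8 and 53.5 CPM in TRF WT CT12 libraries. It had 48.3, 37.8 and 37.9 CPM in AL KO CT0, 43.1, 41.1 and 34.9 CPM in AL KO CT12, 37.5, 35.6 and 34.9 CPM in AL WT CT0 and 37.6, 35.3 and 36.0 CPM in AL WT CT12 libraries. The TRF libraries lay above the AL libraries apart from TRF WT libraries 1 and 11, at 47.6 and 47.8 CPM, which lay below AL KO library 56 at 48.3 CPM.

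The log2 TRF/AL difference of Etl4 was 0.55 (95% interval 0.45 to 0.64; edgeR adjusted p 9.76e-07), and 0.52 with the terms (adjusted p 0.0102). TRF KO library 55 and the 3-digit AL WT CT0 library, which stood with the other feeding group in the means of neighbour genes, had Etl4 levels among those of their own feeding group, 53.3 and 34.9 CPM. The terms hold striatal, hypothalamic and oligodendrocyte genes only. Library 55 and the 3-digit AL WT CT0 library were singled out after their values were seen. Their levels are no test of a part for neighbouring tissue in the Etl4 difference. Whether neighbouring tissue outside the terms had a part was not tested either. Etl4 kept its call without any single library. By combination, its log2 difference was 0.72 in KO CT12 and 0.51 in WT CT12, both called, and 0.42 in KO CT0 and 0.53 in WT CT0, neither called. In the liver Etl4 had 6.67 to 16.8 CPM in 14 TRF and 8.40 to 19.2 CPM in 12 AL libraries, and in the heart 54.2 to 71.4 and 45.1 to 65.3 CPM. A joint fit held the 24 SCN libraries and 24 liver libraries. In it the SCN minus liver difference in the feeding effect of Etl4 was log2 0.82 ± 0.108 (edgeR adjusted p 2.39e-06). The feeding effect itself was 0.54 ± 0.0722 in the SCN and -0.27 ± 0.0798 in the liver, called in both (edgeR adjusted p 2.89e-05 and 0.00993).

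Microglial genes were mostly higher in TRF without the terms. Of 11 microglial genes 10 were higher in TRF and none lower, where 8.96% of all genes were higher and 7.35% lower, with a median log2 of 0.26. Csf1r, the receptor for the factor that keeps microglia alive, had 80.6, 111 and 127 CPM in the lowest, median and highest TRF libraries, against 78.3, 86.0 and 112 CPM in AL libraries (log2 0.32 ± 0.0655; edgeR adjusted p 0.00512). Cx3cr1 and Tmem119, both typical of resting microglia, rose by log2 0.32 and 0.30. With the terms none of the 11 was called and the median was 0.05. Of 10 oligodendrocyte genes 5 were higher, including the myelin genes Mag and Mal (log2 0.27 and 0.25), while of 9 astrocyte genes Slc1a2 was higher and Aldoc lower. None of the vascular, meningeal, red cell or pituitary genes was called, and of 10 ependymal and choroid plexus genes only Rax was (log2 -2.39), a gene of tanycytes.

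Genes of the SCN itself were called as follows, beside 16.3% of all genes called. None of 10 SCN neuropeptide genes and none of 11 SCN receptor genes was called, with median log2 values of -0.02 and -0.10. Avp was at log2 -0.68 ± 0.522 and Vip at 1.10 ± 0.668, neither called. Of 11 genes of SCN identity Nkx2-2 was lower (log2 -0.47) and Cnr1, the cannabinoid receptor, higher (0.30). Six6, a transcription factor that SCN development needs, had 0.234 to 4.98 CPM in TRF and 0.519 to 8.55 CPM in AL libraries (log2 -0.89 ± 0.337; edgeR adjusted p 0.079). Among 14 GABA genes 4 were higher and 3 lower. The GABA-making enzyme Gad1 had 347, 626 and 799 CPM in the lowest, median and highest TRF libraries, against 298, 420 and 653 CPM in AL libraries (log2 0.50 ± 0.120; edgeR adjusted p 0.0116), and the receptor subunit Gabre fell by 0.51 on the log2 scale. The log2 value of Gad1 was 0.01 with the terms. Striatal neurons express Gad1 too, and their part in its difference was not tested.

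Some genes that respond to food and hormones were called, none of them with the terms. Of 14 appetite receptor genes 3 were higher and 2 lower. Mc3r, a receptor for the melanocortins that Pomc neurons release, had 3.44, 5.41 and 7.35 CPM in the lowest, median and highest TRF libraries, against 5.54, 11.1 and 13.3 CPM in AL libraries (log2 -0.92 ± 0.151; edgeR adjusted p 0.00205). The serotonin receptor Htr2c had 74.2, 90.4 and 104 CPM in TRF, against 54.0, 66.3 and 83.3 CPM in AL libraries (log2 0.43 ± 0.0638; edgeR adjusted p 0.00155). Its groups overlapped, and with the terms its log2 value was 0.36 with an adjusted p of 0.255. The insulin receptor Insr was higher (log2 0.22).

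Of 16 insulin and FOXO genes 5 were higher, including Foxo3 and Pik3r1 (both log2 0.19), and of 16 fasting and fuel genes 4 were higher and 1 lower. Ppargc1a, a regulator of mitochondrial genes, had 26.5 to 40.4 CPM in TRF and 18.6 to 31.5 CPM in AL libraries (log2 0.48 ± 0.0927; edgeR adjusted p 0.004), and the mitochondrial carrier Ucp2 fell by 0.40 on the log2 scale. Of 22 cholesterol synthesis genes 4 were lower, by 0.21 or less, and of 14 endoplasmic reticulum chaperone genes 5 were lower, among them Hsp90b1 and Pdia6 (log2 -0.18 and -0.25). Of 15 heat shock genes 5 were lower, of 14 glucocorticoid-responsive genes Klf9 was higher (0.36), and of 15 immediate early genes Egr3 (1.48) and Arc (0.53) were higher. Among 12 CREB targets Dusp4 was higher and Scg2, Bdnf and Pcsk1 lower, among 14 integrated stress genes Vldlr was higher (0.29), and among 10 thyroid hormone genes Nrgn was higher (0.59). These counts stand beside 16.3% of all genes called.

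The feeding difference was not called alike in the 4 combinations of genotype and time. TRF against AL gave 1 called gene in KO CT12 (0.00551%, Etl4), 0 in KO CT0, 190 in WT CT12 (1.05%, 99 higher and 91 lower) and 0 in WT CT0. Genes with an unadjusted p under 0.05 numbered 1643, 2282, 3807 and 1936 in the same order. DESeq2 called 17, 71, 1027 and 15. The TRF minus AL difference of the hypothalamic mean was -1.03, -2.19, -2.96 and -1.78 log2 units in that order. The same difference of the striatal mean was 0.201, 1.13, 1.58 and 0.451 log2 units. WT CT12, with most calls and most genes with an unadjusted p under 0.05, had the widest gap in both means. KO CT0, with 0 calls, came next to it in both gaps and in the unadjusted count of 2282. A link between the gaps and either count was not tested. Without TRF WT libraries 1 and 10, which leaves 2 TRF libraries in each WT group, WT CT12 gave 0 calls. Without 1 library it gave 0 (without TRF library 10, AL library 47 or AL library 48) to 537 (without TRF KO library 55). It was over 1.5 times higher also without libraries 1, 11, 39 and the 3-digit AL WT CT0 library, and over 1.5 times lower without libraries 2, 3, 20, 21, 29, 38, 65 and 66. KO CT0 gave 75 calls without library 55, 33 without the 3-digit AL KO CT0 library, and 1 without AL WT library 39 or the 3-digit AL WT CT0 library. KO CT12 gave 9 without library 55 and 2 without library 39, and WT CT0 gave 1 without AL KO library 56. With the dissection terms KO CT12 gave 26 calls (0.144%), all higher, and each of the other combinations 0.

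In WT CT12 the largest rises among called genes with at least 5 CPM were in Hspa1b, Sema3e, Hspa1a and Pde3a. Hspa1b, an inducible heat shock protein 70 gene, averaged 18.9 ± 2.06 CPM in TRF WT CT12 and 4.98 ± 0.829 CPM in AL WT CT12 libraries (SD, n = 3 each; log2 1.92, edgeR adjusted p 0.0423). Its neighbour Hspa1a averaged 14.3 ± 2.26 CPM in TRF WT CT12 and 6.79 ± 1.74 CPM in AL WT CT12 libraries (log2 1.07, edgeR adjusted p 0.0373). Hspa1a and Hspa1b are nearly identical in sequence, so reads may be divided between them. The largest falls were in Tnfrsf8 (log2 -1.39), the Wnt antagonist Sfrp5 (-0.95), Adgrg2 (-0.93) and Arhgap36 (-0.88).

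The hour of sampling changed the feeding difference of 7 genes (0.0386%), all with a lower TRF/AL ratio at CT12 than at CT0, and 1624 genes had an unadjusted p under 0.05. The count was fragile: without 1 library it was 0 in 16 of 24 fits, 1 or 2 in another 4, and 18, 43, 44 and 48 without AL KO library 66, TRF KO library 30, the 3-digit AL KO CT0 library and the 3-digit AL WT CT0 library. The cold-inducible RNA-binding protein genes Cirbp and Rbm3 were among them, both from a list of 4 cold-inducible genes. Cirbp had 179, 195 and 180 CPM in TRF KO CT0, 126, 135 and 163 CPM in TRF KO CT12, 151, 178 and 181 CPM in TRF WT CT0 and 85.5, 116 and 107 CPM in TRF WT CT12 libraries. It had 135, 142 and 168 CPM in AL KO CT0, 147, 147 and 176 CPM in AL KO CT12, 127, 142 and 159 CPM in AL WT CT0 and 163, 149 and 170 CPM in AL WT CT12 libraries. Under TRF the CT12 libraries lay below the CT0 libraries within each genotype, while under AL the 2 times overlapped in both genotypes.

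The feeding difference of Cirbp at CT12 minus that at CT0 was -0.68 ± 0.119 on the log2 scale (SE; edgeR adjusted p 0.0429), and -0.66 with the dissection terms (adjusted p 0.0236). Rbm3 had 73.3, 76.1 and 79.1 CPM in the lowest, median and highest TRF CT0 libraries, 51.5, 58.9 and 74.7 CPM in TRF CT12, 54.0, 58.7 and 74.8 CPM in AL CT0 and 67.8, 71.4 and 77.6 CPM in AL CT12 libraries (6 each). TRF was higher at CT0 and lower at CT12 in the medians, and the interaction was -0.58 ± 0.0930 (edgeR adjusted p 0.0275). Sf3b1 and Rtn3, the other members of the list, were not called.

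The calls of Cirbp and Rbm3 stood near the threshold. Leaving out 1 library at a time kept the Cirbp call in 4 of 24 fits and the Rbm3 call in 6 of 24, with adjusted p up to 0.112 and 0.11, while the Cirbp interaction stayed between -0.73 and -0.62 and that of Rbm3 between -0.65 and -0.53. With the 3 dissection terms all 7 genes were called again with the same sign. The others included Mt1 (metallothionein, log2 -0.52), Mthfd1l (mitochondrial folate metabolism, -0.56), Rsrp1 (-0.40) and Ccdc116 (-0.80). Mt1 had 171 to 205 CPM in TRF CT0, 129 to 166 CPM in TRF CT12, 147 to 167 CPM in AL CT0 and 149 to 200 CPM in AL CT12 libraries.

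**Figure D4:**
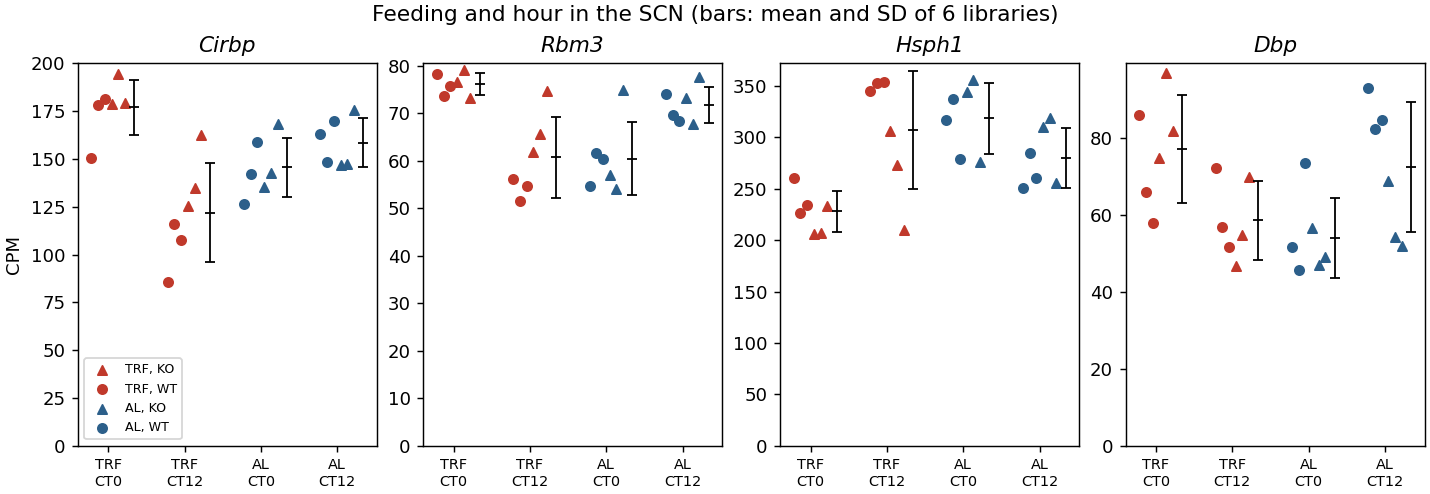
Levels of Cirbp, Rbm3, Hsph1 and Dbp (CPM, from 0) in each SCN library by feeding and time, with KO as triangles, WT as circles and bars for the mean and SD of 6 libraries. Mean Cirbp is 177 CPM at CT0 and 122 CPM at CT12 under TRF, against 146 and 159 CPM under AL. Mean Hsph1 is 228 CPM at CT0 and 307 CPM at CT12 under TRF, against 318 and 280 CPM under AL.

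None of 15 heat shock genes was called for the interaction without the terms, and 2 were with them. All 15 had a positive value, with a median of 0.34 log2 units, as had 13 of 14 endoplasmic reticulum chaperone genes (median 0.34, none called without the terms and 1 with them), against 0 of 4 cold-inducible genes and 49.5% of all genes. Hsph1, a cochaperone of heat shock protein 70, had 206, 230 and 260 CPM in the lowest, median and highest TRF CT0 libraries, 210, 326 and 354 CPM in TRF CT12, 276, 328 and 356 CPM in AL CT0 and 251, 273 and 319 CPM in AL CT12 libraries. Its interaction was 0.60 ± 0.118 (edgeR adjusted p 0.0544; 0.59 and 0.0191 with the terms). Hspa1a gave 1.10 ± 0.229 (adjusted p 0.0696; 1.11 and 0.0449 with the terms), and the cochaperone Stip1, named after its value was seen, 0.48 (adjusted p 0.0517; 0.46 and 0.0174 with the terms). Immediate early genes had a positive interaction in 15 of 15 members and cholesterol synthesis genes in 0 of 22, with no member called in either fit. These genes share libraries and vary together, so such counts describe the lists only.

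With the terms, the interaction was called for 50 genes (0.276%), 24 with a positive (0.133%) and 26 with a negative value (0.144%), in place of 7. They included the clock-controlled genes Dbp (-0.82, adjusted p 0.0236), Ciart (-0.74, 0.0191) and Per3 (-0.36, 0.0258). The promoters of Cirbp and of 2 heat shock genes are shown because these genes gave the opposite interactions. Each is 300 bases from RefSeq (GRCm38.p6), 250 before and 50 after the annotated start, 5′ to 3′ on the gene's own strand. Capitals mark TCCCCGCC, described as a mild-cold responsive element in mouse Cirbp, for Cirbp at chr10:80167589-80167888 (plus strand). For Hsph1 at chr5:149636287-149636586 and Hspa1a at chr17:34972107-34972406 (both minus strand) they mark GAANNTTC or TTCNNGAA, the paired units of a heat shock element, which may overlap.
Cirbp: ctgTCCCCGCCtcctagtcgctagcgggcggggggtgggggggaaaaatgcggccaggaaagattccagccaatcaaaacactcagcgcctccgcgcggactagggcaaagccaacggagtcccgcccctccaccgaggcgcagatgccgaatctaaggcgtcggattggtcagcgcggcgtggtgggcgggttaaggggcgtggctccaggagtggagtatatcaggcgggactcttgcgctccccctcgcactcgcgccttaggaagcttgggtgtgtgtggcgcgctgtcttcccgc
Hsph1: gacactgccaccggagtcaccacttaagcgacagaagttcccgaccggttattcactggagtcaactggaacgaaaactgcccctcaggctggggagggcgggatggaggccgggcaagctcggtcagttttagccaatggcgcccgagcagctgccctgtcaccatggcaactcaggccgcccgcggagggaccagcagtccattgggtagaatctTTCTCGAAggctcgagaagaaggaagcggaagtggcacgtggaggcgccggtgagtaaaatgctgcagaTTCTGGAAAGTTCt
Hspa1a: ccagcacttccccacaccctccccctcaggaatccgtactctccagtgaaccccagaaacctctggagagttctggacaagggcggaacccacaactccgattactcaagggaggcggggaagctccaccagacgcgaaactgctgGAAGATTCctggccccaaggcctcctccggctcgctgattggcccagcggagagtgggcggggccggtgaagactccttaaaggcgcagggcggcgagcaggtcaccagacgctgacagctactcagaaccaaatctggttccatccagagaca
Both strands were searched. Of 32841 mouse promoters of this length, 5.38% held TCCCCGCC and 15.1% a heat shock pair. Of 2 annotated Cirbp promoters, the one shown held TCCCCGCC once, and the promoters of Hspa1a and Hspa1b held it as well. Hsph1 held 3 heat shock pairs and Hspa1a held 1. Stip1 and Hsp90b1, with a positive interaction called with the terms, held no heat shock pair. The promoters of Mt1, Rsrp1, Mthfd1l and Ccdc116, called for the interaction with Cirbp, did not hold TCCCCGCC.

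Calls among the clock genes of the SCN stand beside 8.96% of all genes higher and 7.35% lower. Of 23 clock genes 4 were higher in TRF, among them Cry2 (log2 0.14), Cry1 (0.20) and Usp2 (0.31), and Nfil3 (-0.32) was lower, and none was called with the terms. Arntl had 18.3, 22.0 and 23.9 CPM in the lowest, median and highest TRF libraries, against 18.2, 24.2 and 29.2 CPM in AL libraries (log2 -0.12 ± 0.0484; edgeR adjusted p 0.0906). For the feeding by time interaction none of the 23 was called without the terms. Dbp, an output gene of the clock, had 57.8, 78.3 and 96.8 CPM in the lowest, median and highest TRF CT0 libraries, 46.6, 55.7 and 72.2 CPM in TRF CT12, 45.6, 50.4 and 73.6 CPM in AL CT0 and 52.0, 75.6 and 93.0 CPM in AL CT12 libraries. TRF had the higher median at CT0 and AL at CT12, with overlap at both times (interaction -0.79 ± 0.190; edgeR adjusted p 0.138).

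The difference between SCN and liver in these genes was tested in a joint fit of 48 libraries with the same title numbers. Arntl had an interaction of 0.16 ± 0.122 on the log2 scale in the SCN and of 5.98 ± 0.146 in the liver, and the SCN minus liver difference was -5.83 ± 0.191 (edgeR adjusted p 1.95e-24). In the liver Arntl averaged 2.39 CPM in TRF CT0, 44.1 CPM in TRF CT12, 47.5 CPM in AL CT0 and 22.4 CPM in AL CT12 libraries, which ran from 4.78 to 44.8 CPM over both genotypes. For Dbp the SCN gave -0.80 ± 0.337 and the liver -9.92 ± 0.475, a difference of 9.13 ± 0.589 (edgeR adjusted p 1.18e-13). For Per3 the difference was 5.19 ± 0.528 and for Npas2 -9.81 ± 0.777. Of the 23 clock genes 18 differed between SCN and liver in the interaction, where 14.3% of all genes did (26.6% were called for the interaction in the liver itself), and 11 in the feeding effect, where 12.9% did. The median absolute interaction over the 23 genes was 0.20 log2 units in the SCN and 2.02 in the liver. SCN libraries also varied in RNA of neighbouring regions, and the part of this in the SCN values was not tested.

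**Figure D5:**
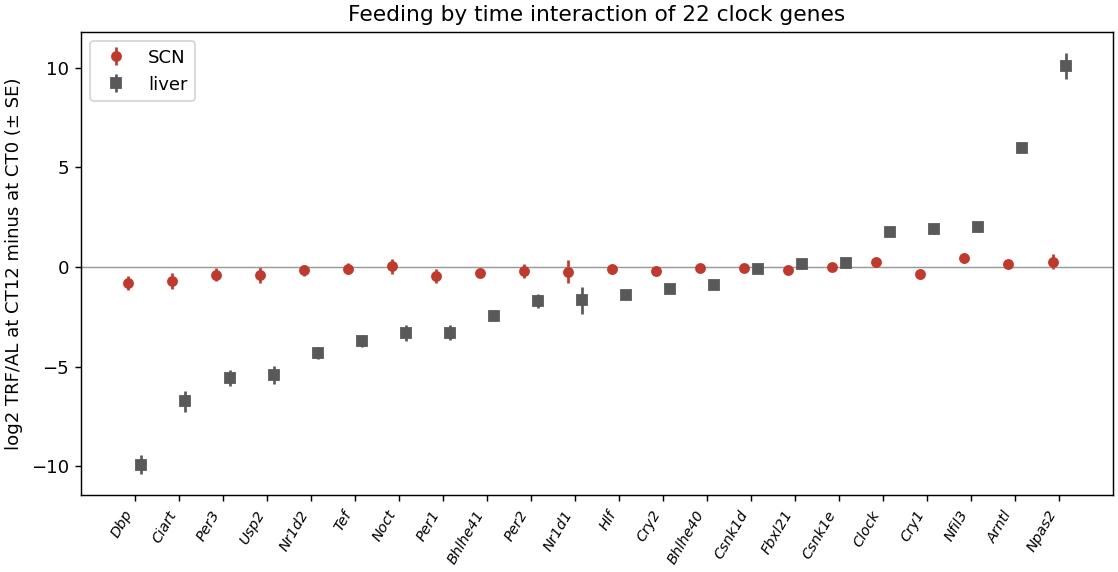
Feeding by time interaction (log2 TRF/AL at CT12 minus that at CT0, with its SE) of 22 clock genes in the SCN (red circles) and in the liver (grey squares) from the joint fit, ordered by the liver value. SCN values lie within 0.80 of 0, and liver values run from -9.92 for Dbp to 10.1 for Npas2.

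Cirbp and Rbm3 were not called for a difference between the tissues. In this fit their interaction was -0.69 ± 0.121 and -0.59 ± 0.117 in the SCN, and -0.30 ± 0.127 and -0.51 ± 0.122 in the liver. Here the interaction was called for Cirbp in the SCN (edgeR adjusted p 0.0276) and not in the liver (adjusted p 0.0832), and for Rbm3 in the liver (adjusted p 0.00135) and not in the SCN (adjusted p 0.106). The SCN minus liver difference was -0.39 ± 0.175 (edgeR adjusted p 0.146) and -0.08 ± 0.169 (edgeR adjusted p 0.935), which does not show that the tissues were alike.

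Genotype did not detectably change the feeding difference. No gene was called for the feeding by genotype interaction in edgeR, where 883 had an unadjusted p under 0.05, and none with the terms; DESeq2 called 1. For Etl4 the TRF/AL difference in KO minus that in WT was 0.05 on the log2 scale (95% interval -0.14 to 0.24). The median interaction was -0.48 over the striatal genes. It was 0.87 over the arcuate, 0.31 over the ventromedial and 6.05 over the lateral and dorsomedial genes. TRF KO libraries 55, 28 and 29 had hypothalamic means among those of AL libraries, and the part of this in the medians was not tested.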

How the data were processed

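RNA-seq counts per gene were analysed for 24 SCN libraries and, for the comparison of tissues, 24 liver libraries with the same title numbers; heart and further liver libraries entered only the levels of Etl4. Per the labels' protocols, RNA was extracted with TRIzol and libraries were made with a NEBNext Ultra II kit. The authors deposited whole-number counts, and the submitters' processing notes name FastQC 0.11.8, STAR and mm10; the counter, its strand setting and the annotation release are not given in the sources used here. Of 38129 entries, 38038 (99.8%) matched GENCODE vM21 by gene ID.

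Counts were fitted with edgeR 4.0.16 in R 4.3.3: TMM factors, filterByExpr over the 8 groups, group means, robust quasi-likelihood tests and Benjamini-Hochberg adjustment over all tested genes at 0.05. The feeding effect is the mean TRF minus AL difference over genotype and time. CPM were computed from the deposited counts with TMM factors. Dissection terms are mean log2 CPM (prior count 0.5) of the lists, and genes of those lists were not tested in that fit. Alternatives covered RLE factors, no filter, DESeq2 1.42.0, other models and libraries left out. Figures used matplotlib 3.10.9.

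Data were simulated for the feeding effect over 18133 genes. Calls were made for 56% of genes changed 1.2-fold, 92% at 1.5-fold, 96% at 2-fold and 100% at 3-fold. There were 4 unchanged genes among 176 calls. Whether these rates hold where neighbouring tissue differs between the feeding groups was not tested.

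Members, gene lists and tests were chosen with earlier results of these data known. Named genes were the 5 dissection genes with Arntl and Vip, up to 4 members of each list by adjusted p, the clock list, and the 12 largest rises and falls, or 4 per combination or interaction, among called genes averaging at least 5 CPM. Ngfr, Stip1 and other members named beyond this were chosen after their values were seen. Single-gene results of some members are not reported here.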

Additional observations from a re-analysis of the deposited data

Results flagged for a closer look

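The feeding difference of 7 genes in the SCN, 6 of them given here, differed between the 2 times of day in a test of the interaction, as log2 TRF/AL at CT12 minus that at CT0. The values were -0.80 for Ccdc116, -0.68 for Cirbp, -0.58 for Rbm3, -0.56 for Mthfd1l, -0.52 for Mt1 and -0.40 for Rsrp1.

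The feeding effect of 11 clock genes differed between SCN and liver in the joint fit, as SCN minus liver on the log2 scale. This difference was positive for Arntl (1.21), Clock (0.88) and Cry1 (0.61). It was negative for Dbp (-2.02), Ciart (-1.72), Per3 (-1.47), Per1 (-1.30), Noct (-0.96), Tef (-0.74), Bhlhe41 (-0.68) and Cry2 (-0.38). In the same fit the feeding effect of Arntl was -0.12 in the SCN and -1.33 in the liver, and that of Dbp 0.11 and 2.13. Over the 23 clock genes the median absolute feeding effect was 0.11 in the SCN and 0.64 in the liver.

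The feeding by time interaction of 18 clock genes differed between the same tissues. SCN minus liver was negative for Npas2 (-9.81), Arntl (-5.83), Cry1 (-2.27), Nfil3 (-1.56) and Clock (-1.54), genes whose liver interaction was positive. It was positive for Dbp (9.13), Ciart (6.02), Per3 (5.19), Usp2 (5.03), Nr1d2 (4.15), Tef (3.65), Noct (3.36), Per1 (2.82), Bhlhe41 (2.17), Per2 (1.5), Hlf (1.27), Cry2 (0.89) and Bhlhe40 (0.87). The causes were not tested.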

How the results depend on the processing

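Counts of called genes were 2956 for the feeding effect, 7 for feeding by time, 0 for feeding by genotype, and 0, 190, 0 and 1 for feeding in WT CT0, WT CT12, KO CT0 and KO CT12. DESeq2 gave 88 for feeding by time, 1 for feeding by genotype, and 15, 1027, 71 and 17 for the combinations. No filter gave 18 for feeding by time, 1 in WT CT0, 1 in KO CT0 and 4 in KO CT12. Without the 4 AL libraries with 3-digit numbers the counts were 44 for feeding by time, 181 in WT CT0, 593 in WT CT12 and 224 in KO CT0. A term for these 4 libraries gave 4641 for feeding, 74 for feeding by time, and 337, 1617, 607 and 44 for the combinations. Without TRF WT libraries 1 and 10 the counts were 1554, 1, 0 in WT CT12 and 2 in KO CT12. The 3 dissection terms gave 1, 50, 0 in WT CT12 and 26 in KO CT12, and the striatal and hypothalamic terms alone, added after seeing the data, 1 for feeding, 42 for feeding by time and 2 for feeding by genotype. Fits of only the 2 groups compared gave 2 in WT CT12 and 110 in KO CT12. Leaving out TRF KO library 55 and the 3-digit AL WT CT0 library, also added, gave 53 for feeding by time, and leaving out the 5 libraries highest in striatal genes gave 972 for feeding. RLE factors kept all 7 counts, and the additive model the first 3, within 1.5 times. Leaving out 1 library gave 1839 to 3784 for feeding, 0 to 48 for feeding by time, 0 to 1 for feeding by genotype, 0 to 1 in WT CT0, 0 to 537 in WT CT12, 0 to 75 in KO CT0 and 1 to 9 in KO CT12. The cause was not tested.

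Between SCN and liver, 2496 genes differed in the feeding effect and 2770 in the interaction, 1603 and 1630 without the 3-digit libraries, and 1991 to 2817 and 2346 to 2905 without 1 number. Over 24 pairs of equal title number the correlation of deviations from the group means ran from -0.0595 to 0.0598. Of the SCN libraries, 3 correlated best with their own number. Deviations in the SCN also held differences in neighbouring tissue, so these values cannot tell whether equal numbers mark the same animal. The label number as a replicate block gave 2257 and 2508.

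Signs of named genes turned with the 3 terms for Nkx2-4 (0.45), Fzd5 (0.27), Bsx (0.20), Bdnf (0.0505), Pcsk1 (0.0297), Scg2 (0.0286), Sc5d (0.0231), Gpr50 (0.0029) and Foxo6 (-0.0590). With 2 terms they turned for Nkx2-4 (0.29), Bsx (0.0937), Fzd5 (0.0759) and Foxo6 (-0.0150).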
